A study of Mus musculus with 6 samples.

Results

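SALL4 is a zinc-finger protein of embryonic stem cells whose C-terminal finger cluster binds AT-rich DNA. Its sites inside genes for long non-coding RNAs (lncRNAs, transcripts that are not translated) are described here. Members were consensus regions, that is, merged intervals present in both wild-type peak lists and overlapping no knockout interval, on chromosomes 1 to 19. The midpoint had to lie inside a lncRNA gene, in no protein-coding gene, and within 300 kb of a coding gene in the GRCm38.p6 gene table of RefSeq. This gave 2646 of 37997 consensus regions, or 7.26% of the 36443 on the autosomes. A further 198 regions in lncRNA genes lay past the 300 kb limit, and 18068 autosomal regions lay in coding genes.

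The sites were mapped by CUT&RUN, in which an antibody in permeabilised cells guides a nuclease that cuts out the DNA around its target. The wild-type cells were the Sall4 F/F line, in which both copies of the gene are flanked by recombination sites, and the knockout cells were the Sall4 -/- line. Both were mouse embryonic stem cells kept in 2i + LIF medium, and each genotype is a single line. Each had 2 libraries made with the SALL4 antibody clone EE-30, whose peak lists were used, while the 2 IgG libraries were not analysed here. The labels do not say whether replicates were separate cultures, so the spread between them may be technical. The peak lists hold no expression values, and the identity of the cells was therefore not checked against marker genes.

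The lists give no read totals. Pileups were sought as whole numbers from the deposited values. The best one met the deposited p-value within the tolerance given below for 100% of the members in both lists. The median member rested on 11 fragments at its summit in wild-type replicate 1 and on 10 in replicate 2, and the weakest on 4 in each.

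LncRNAs act in several ways. Some scaffold proteins, some host microRNAs in their introns, and others matter through their transcription or through regulatory DNA inside the gene, which can act on a neighbouring coding gene. In embryonic stem cells, the Platr genes (pluripotency-associated transcripts) and Lncenc1 are known as markers of the undifferentiated state. A SALL4 region inside such a gene is a position in DNA, and the files do not say which gene, if any, it acts on.

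Few lncRNA promoter windows were overlapped by a member. Sequences are shown for the 4 genes with the strongest member whose summits in both replicates lay inside a window. Gm31510 had a further window on the same member, which overlaps the one shown. A promoter window reached from 250 bases before to 50 bases after a transcript start, and the sequences are from RefSeq, build GRCm38.p6. They are written 5′ to 3′ on the gene's strand, and capitals mark the stretch from 15 bases before the first summit to 15 bases after the other. Gm51802 lies on the minus strand at chr10:60162342-60162641 and Gm31510 on the minus strand at chr7:79272980-79273279. Gm32796 lies on the plus strand at chr16:29972610-29972909 and 4833407H14Rik on the plus strand at chr19:53460372-53460671.
Gm51802: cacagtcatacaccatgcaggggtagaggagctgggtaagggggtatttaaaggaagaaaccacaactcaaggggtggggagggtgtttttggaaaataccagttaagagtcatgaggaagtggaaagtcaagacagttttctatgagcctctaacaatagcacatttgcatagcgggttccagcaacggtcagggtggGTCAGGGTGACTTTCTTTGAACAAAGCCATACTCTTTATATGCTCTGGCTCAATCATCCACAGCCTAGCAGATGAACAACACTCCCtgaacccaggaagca
Gm31510: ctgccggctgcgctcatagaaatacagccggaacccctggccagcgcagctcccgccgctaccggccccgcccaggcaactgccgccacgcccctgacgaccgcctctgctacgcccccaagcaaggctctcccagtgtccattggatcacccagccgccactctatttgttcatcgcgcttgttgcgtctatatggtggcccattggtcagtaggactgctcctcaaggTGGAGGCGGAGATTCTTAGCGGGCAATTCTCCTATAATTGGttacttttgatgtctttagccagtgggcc
Gm32796: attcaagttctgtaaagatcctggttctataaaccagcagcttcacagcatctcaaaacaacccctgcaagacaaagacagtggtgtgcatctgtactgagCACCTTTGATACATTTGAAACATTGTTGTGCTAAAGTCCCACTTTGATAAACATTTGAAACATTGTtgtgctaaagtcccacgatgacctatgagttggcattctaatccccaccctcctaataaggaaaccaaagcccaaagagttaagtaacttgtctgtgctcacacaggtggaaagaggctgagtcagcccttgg
4833407H14Rik: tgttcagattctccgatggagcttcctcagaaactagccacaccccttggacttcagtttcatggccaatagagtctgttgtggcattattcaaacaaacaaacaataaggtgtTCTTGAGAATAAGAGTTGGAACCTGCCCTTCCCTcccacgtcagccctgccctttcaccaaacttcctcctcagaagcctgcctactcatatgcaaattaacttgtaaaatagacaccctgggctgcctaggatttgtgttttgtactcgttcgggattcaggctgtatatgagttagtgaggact

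The deposited fold enrichment, which from the values is the pileup at the summit plus 1 over a local background plus 1, was 21.5 and 19.5 in replicates 1 and 2 at Gm51802. It was 15.3 and 16.5 at Gm31510, 14.7 and 16.7 at Gm32796, and 19.3 and 13.1 at 4833407H14Rik. All 4 genes carry provisional names, and they were chosen for these values. The medians of all members were 7.18 and 6.60.

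The promoter windows of 2 Platr genes also met a member, although the summits lay outside the window. Capitals in these 2 sequences mark the bases covered by the consensus region. Platr6 has the window on the minus strand at chr10:21845984-21846283, at a start inside the gene, and Platr22 on the plus strand at chr1:136695961-136696260, at the first base of the gene.
Platr6: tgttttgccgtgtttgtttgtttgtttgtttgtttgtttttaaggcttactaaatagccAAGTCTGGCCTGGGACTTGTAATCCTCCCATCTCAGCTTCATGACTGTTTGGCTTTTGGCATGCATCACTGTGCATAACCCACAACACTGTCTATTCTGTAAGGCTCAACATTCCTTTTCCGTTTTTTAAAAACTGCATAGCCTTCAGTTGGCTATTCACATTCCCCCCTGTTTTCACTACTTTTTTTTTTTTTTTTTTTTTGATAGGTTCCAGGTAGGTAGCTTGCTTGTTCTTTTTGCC
Platr22: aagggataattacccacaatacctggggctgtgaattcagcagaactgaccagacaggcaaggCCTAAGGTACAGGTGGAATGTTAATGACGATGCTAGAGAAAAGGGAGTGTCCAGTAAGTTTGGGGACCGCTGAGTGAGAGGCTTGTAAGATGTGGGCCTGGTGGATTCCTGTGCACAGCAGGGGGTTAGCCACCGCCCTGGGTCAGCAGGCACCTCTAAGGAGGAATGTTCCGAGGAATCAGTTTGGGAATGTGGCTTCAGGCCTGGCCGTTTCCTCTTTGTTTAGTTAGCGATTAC

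The region at Platr6 had fold enrichments of 15.2 and 20.7, and the region at Platr22 had 11.2 and 11.3. In all, 82 of 11311 lncRNA promoter windows, 0.725%, were overlapped by a member, and these belonged to 77 of the 9291 lncRNA genes with a window. Both summits lay inside the window in 22 of the 82. Any consensus region, members or not, overlapped 2.61% of lncRNA windows and 3.33% of 20085 windows of coding genes. A window lies mostly before a transcript start, while a member's midpoint must lie inside a lncRNA gene. The position rule thus limits the share for members.

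The AT-rich motif ATATT was searched on both strands, as was AATATT, which contains it. None of the 6 windows printed above held ATATT, and the summits lay outside the Platr windows. Among the windows with both summits inside, those of Gm20753, Gm34201, LOC105244755, Gm32429 and Gm45609 held it. Of the 82 windows that met a member, 22 held ATATT (26.8%) against 31.1% of all lncRNA windows, and 7 held AATATT (8.54%) against 8.19%. The mean A+T content was 49.0% ± 8.45 (SD over the 82 windows) against 50.6% ± 9.33 (SD over all 11311 windows).

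Another feature of lncRNA genes is that they host microRNAs. Of 99 microRNA hairpins that lay in lncRNA genes and in no coding gene, 0 were overlapped by a member and 4 lay within 500 bp of one. The number to be met from the density of members alone was not computed, so these counts are a description only. The mature sequences of the 4 hairpins are printed with the seed, bases 2 to 8, in capitals, to show which microRNAs they are. They come from RefSeq, build GRCm38.p6.
miR-9-5p: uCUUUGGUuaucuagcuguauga
miR-9-3p: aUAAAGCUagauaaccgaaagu
miR-9b-3p: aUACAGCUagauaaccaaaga
miR-1897-3p: uCAACUCGuucuguccggugag
miR-193b-5p: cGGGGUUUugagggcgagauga
miR-193b-3p: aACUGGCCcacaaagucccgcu

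No seed is shared among the 6. Mir9-2, whose miR-9-5p acts in neural progenitors, and Gm51268, the hairpin of miR-9b on the opposite strand, lie in C130071C03Rik. Both lie beside the same member, 160 bp from Mir9-2, at chr13:83738322-83738653, with fold enrichments of 9.64 and 4.76. Mir193b lies in the lncRNA genes Gm53058 and Gm32817, 332 bp from a member at chr16:13449934-13450290 with fold enrichments of 11.7 and 10.9. Mir1897 lies in Sox2ot, 328 bp from a member with 8.85 and 4.02. The value at Mir193b was similar in both lists, and the other 2 members had their higher value in that of replicate 1.

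The comparison of genotypes asks whether the intervals in lncRNA genes depend on SALL4. All intervals of each list were used here, without the consensus step. On the autosomes, 3760 intervals of wild-type replicate 1 and 3270 of replicate 2 lay in lncRNA genes by the same position rule, and 0 did in either knockout list. The wild-type mean was 3515 ± 346 (SD, n = 2) and the groups did not overlap. The log2 difference was 11.78 with 1 added to each count, a size set by the wild-type counts and by the added 1. Exact permutation of the 4 libraries, two-sided, gave p = 0.333, below which 2 against 2 cannot go. The knockout lists held 0 autosomal intervals of any kind, so the 0 is not particular to lncRNA genes. On X and Y, 11 and 14 of their intervals had a midpoint in a lncRNA gene, against 126 and 125 wild-type intervals.

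The share of autosomal intervals that lay in lncRNA genes was 7.12% in replicate 1 and 7.06% in replicate 2. Replicate 2 overlapped 2698 of the 3760 lncRNA intervals of replicate 1, or 71.8% (95% Wilson interval 70.3 to 73.2). In turn, replicate 1 overlapped 2665 of the 3270 of replicate 2, or 81.5% (80.1 to 82.8). In coding genes these shares were 68.0% (67.5 to 68.6) and 77.4% (76.8 to 77.9), below the lncRNA shares in both lists. Outside genes, at any distance from a coding gene, they were 72.9% and 81.3%. The Wilson intervals cover counting error only, and with 2 lists the differences were not tested. The lncRNA intervals with a partner had a median enrichment of 7.11 in replicate 1 and 6.54 in replicate 2, while those without one had 4.54 and 4.08.

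Density was then set against the length of sequence. The lncRNA sequence that could hold a member came to 141.6 Mb, and the members numbered 18.7 per Mb of it. Coding genes held 18.4 consensus regions per Mb and sequence in no gene, within the same 300 kb of a coding gene, held 15.2. LncRNA sequence was thus 1.23 times as dense as sequence in no gene, and 1.25 and 1.23 times in the lists of replicates 1 and 2. Against coding genes the ratio was 1.01 in the consensus but 0.964 and 0.962 in the single lists, and it was 1.10 among consensus regions whose −log10 q reached 10 in both lists. The order of lncRNA and coding genes thus differed between these sets. Runs of unsequenced or unmappable DNA were not removed from any of the lengths, and their part in the difference was not tested.

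**Figure D1:**
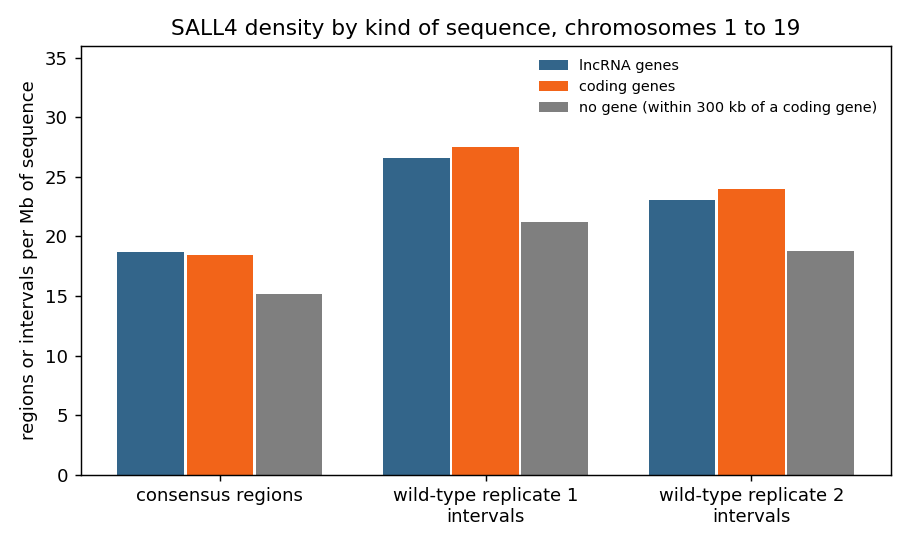
Bars give the number of consensus regions, or of intervals in each wild-type list, per Mb of sequence inside lncRNA genes, inside coding genes, and in no gene within 300 kb of a coding gene. In all 3 sets the bar for sequence in no gene is the lowest, at 15.2, 21.2 and 18.8 per Mb, and the bars for lncRNA and coding genes are nearly level.

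By chromosome, the density in lncRNA sequence ran from 15.6 per Mb on chromosome 9 to 29.9 per Mb on chromosome 11, with a median of 17.4. It exceeded that of sequence in no gene on 17 of 19 chromosomes and that of coding genes on 11 of 19. Chromosomes share the same libraries, so these counts describe the lists and were not tested.

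Position within the gene could be read for the 9291 lncRNA genes whose strand is given by a promoter entry. Members were densest near the start of the gene. There were 29.6 per Mb in the first 1 kb (179 members), 23.8 from 1 to 5 kb, 18.96 from 5 to 20 kb and 14.0 beyond 20 kb. The same order held in the list of replicate 1, at 43.8, 33.8, 26.5 and 19.6 per Mb, and in that of replicate 2, at 35.2, 29.1, 23.8 and 17.4. Counted from the far end of the gene, the densities were 25.2, 23.8, 19.01 and 14.6 per Mb, so from either end the density was lowest beyond 20 kb. In genes of at least 50 kb the slope from the start was shallower, from 20.6 per Mb (10 members) to 13.3. In coding genes the first 1 kb held 15.7 consensus regions per Mb and the later bins 20.8, 20.9 and 17.9. These differences were not tested.

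The members were spread unevenly over the genes. Of 12408 autosomal lncRNA genes, 1533 held a member, which is 12.4%. Any consensus region, member or not, was held by 2119 lncRNA genes (17.1%) and by 27.4% of 20665 coding genes. The median length was 8.39 kb for lncRNA genes and 17.5 kb for coding genes. A single member was found in 960 lncRNA genes, 2 in 308, 3 or 4 in 189, and 5 or more in 76. Those 76 genes held 541 of the members, or 20.4%. Among the genes without one, 3457 had no sequence that could hold a member (lncRNA sequence outside coding genes and within 300 kb of one, called usable below). Of the members, 2547 lay in a single lncRNA gene and 99 in several that overlap.

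Longer genes held more members but at a lower density. Of genes with under 2 kb of usable sequence 3.83% held a member, of those with 2 to 10 kb 10.1%, of those with 10 to 50 kb 24.9%, and of those with at least 50 kb 49.4%. The density fell over the same bins, from 35.3 through 25.2 and 20.2 to 14.0 per Mb. Across the 8951 genes with usable sequence, length and number of members had a Spearman's rho of 0.313, a description over genes that share the same libraries. Genes with a member had a median length of 19.4 kb, and those without had 7.485 kb.

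**Figure D2:**
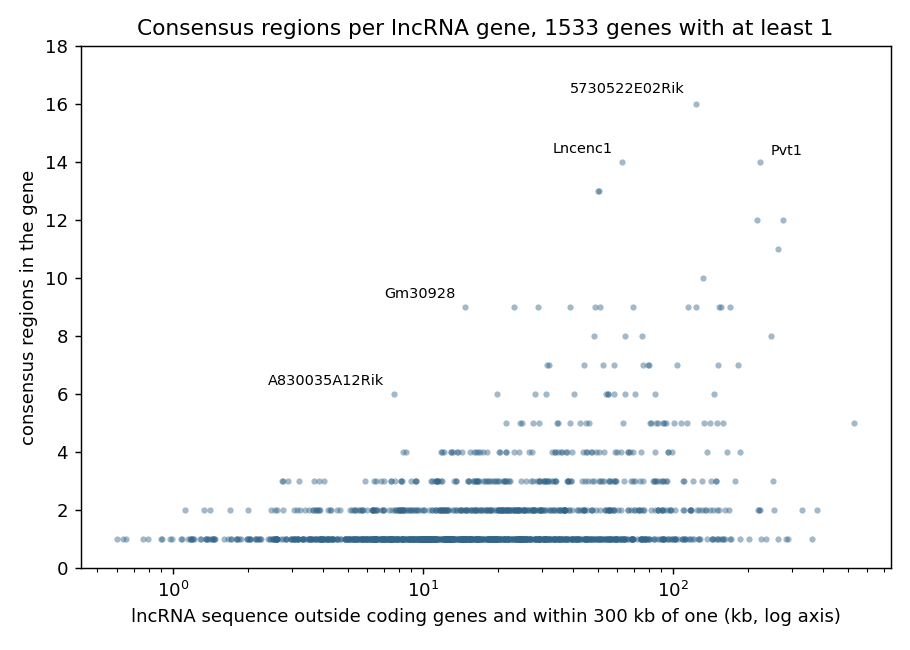
Each point is 1 of the 1533 lncRNA genes with a member, placed by its usable sequence in kb (log axis) and its number of consensus regions. The gene with the most, 5730522E02Rik, stands at 16, while Gm30928 and A830035A12Rik reach 9 and 6 in far less sequence.

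The most bound gene was 5730522E02Rik, an uncharacterised lncRNA of 593.7 kb on chromosome 11 (25616846 to 26210576, minus strand), with 16 members. Its nearest coding gene is Fancl, which encodes a ubiquitin ligase of DNA crosslink repair. The 16 lay in the 123.5 kb nearest the start of the gene, since the rest of it lies past the 300 kb limit. Without that limit the count was 27. The strongest member, at 26166776 to 26168119, was 1344 bp wide with fold enrichments of 32.9 and 28.3, and the next lay at 26103697 to 26104528 with 23.7 and 28.0. The weakest in replicate 2 had 5.51 and 4.08. Of the 16, the same 2 regions were the strongest in both replicates.

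Lncenc1, a lncRNA abundant in naive embryonic stem cells, held 14 members in 62.7 kb on chromosome 13 (97434970 to 97497664, plus strand). Its whole length was usable, and the density was 2.23 per 10 kb against a median of 0.672 among the 1363 bound genes of at least 5 kb. The lists of replicates 1 and 2 held 16 and 17 intervals there. The strongest member lay 17.49 kb from the start, at 97452125 to 97452794, with fold enrichments of 24.8 and 18.4 and summit pileups of 35 and 26 fragments. The widest, 901 bp at 21.5 kb from the start, had 11.7 and 11.6. Fold enrichments of the 14 ran from 4.57 to 24.8 in replicate 1 and from 3.40 to 18.4 in replicate 2. No member lay between 21.5 and 46.5 kb from the start, so they form a group of 10 near the start and a group of 4 towards the end.

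Pvt1, a lncRNA next to the growth regulator Myc, also held 14 members, spread over 222.2 kb on chromosome 15 (62037986 to 62260215). The density was only 0.630 per 10 kb. Replicates 1 and 2 held 18 and 14 intervals there. The strongest member, at 62131717 to 62132032, lay 141.5 kb from Myc and was enriched by 15.2 and 12.9. The median member of Pvt1 had 5.51 and 6.51, below the medians of all members. The count fell to 9 when overlaps had to cover at least 50% of both intervals.

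5031425E22Rik and Gm33742 held 13 members each. 5031425E22Rik overlaps Kmt2e, which encodes a SET-domain protein, and its strongest member lay 24.98 kb from that gene, at chr5:23407583-23408519, with fold enrichments of 30.3 and 32.0. Another member lay 1.08 kb from Kmt2e, with 24.8 and 19.04. In Gm33742 a pair of members was nearly level, at chr11:86855959-86856788 with 25.4 and 23.6, and at chr11:86819283-86819973 with 24.3 and 24.5. With summits required within 100 bp, 7 members were left in 5031425E22Rik, and with the overlap of at least 50% 8 were left in Gm33742.

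**Figure D3:**
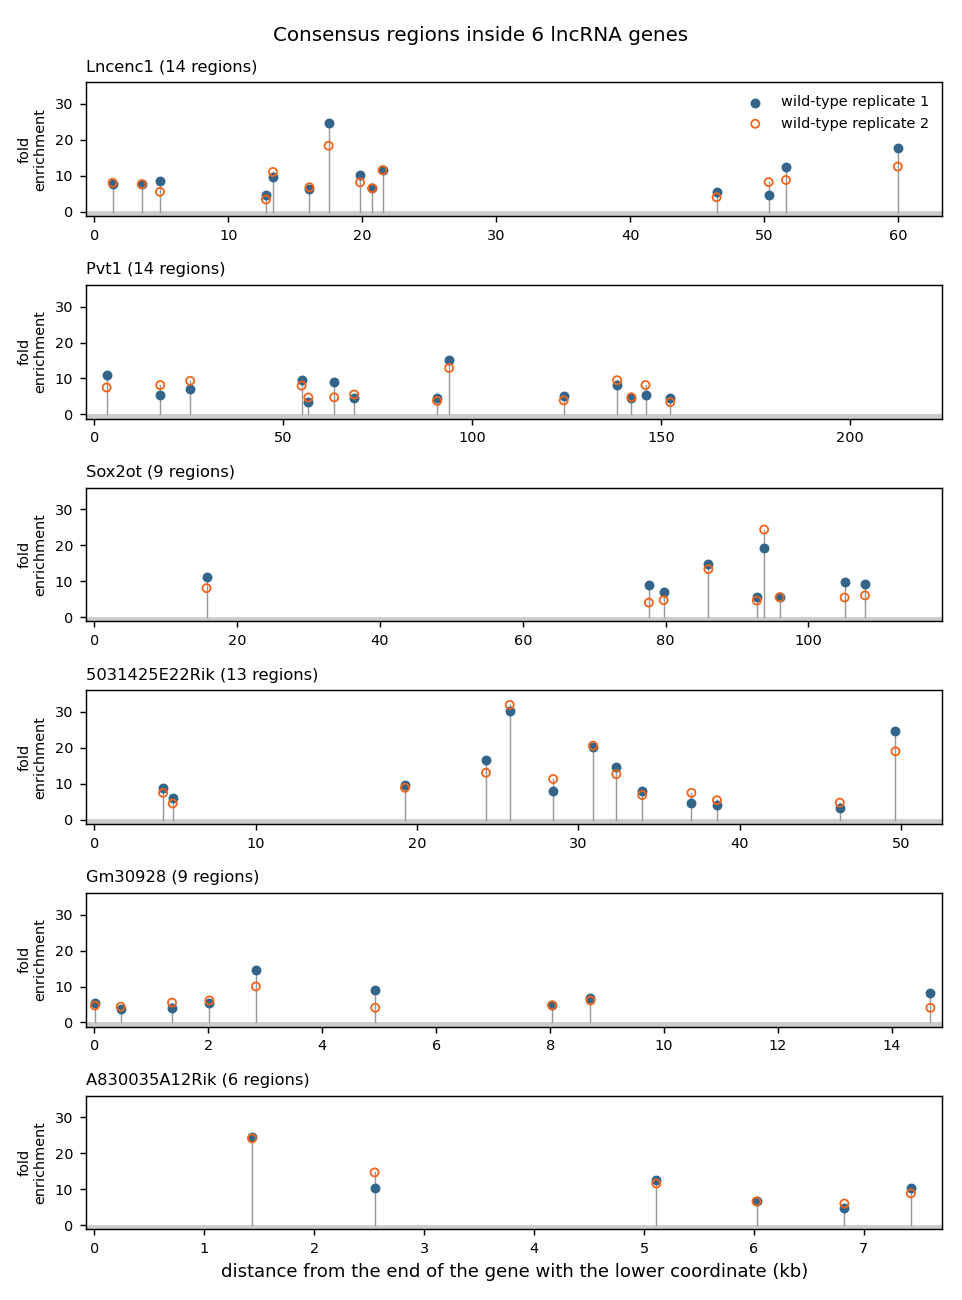
Each panel is 1 lncRNA gene (grey bar) with its consensus regions by distance in kb from its end with the lower coordinate, and the height is the fold enrichment in wild-type replicate 1 (filled) and replicate 2 (open). The 14 regions of Lncenc1 leave a gap between 21.5 and 46.5 kb, and 8 of the 9 regions of Sox2ot lie in its right part, from 77.7 kb on.

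A330033J07Rik and 4930500H12Rik held 12 members each. A330033J07Rik overlaps Id4, an inhibitor of helix-loop-helix factors, and its strongest member had fold enrichments of 19.97 and 20.4. 4930500H12Rik lies near Robo1, which encodes an axon guidance receptor. It holds the member at chr16:73096249-73097353 with 49.4 and 44.0, while the medians of its 12 members were 7.34 and 6.22. Gm15270, which overlaps the matricellular protein gene Ccn2, held 11 members, and its strongest, 4.73 kb from Ccn2, had 14.3 and 14.8. Gm30687 held 10, and 18 without the 300 kb limit.

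Sox2ot is the lncRNA gene in which the pluripotency gene Sox2 lies. It held 9 members in 117.6 kb on chromosome 3 (34560381 to 34677993), with 12 and 10 intervals in replicates 1 and 2. The strongest lay 1.73 kb from Sox2, at 34653807 to 34654575, with fold enrichments of 19.4 and 24.4. The next lay 3.61 kb from Sox2 with 14.9 and 13.3. A member 0.705 kb from Sox2 was weak, at 5.59 and 4.58. The first pair held the highest values in both replicates, and 8 of the 9 members lay at most 15.9 kb from Sox2.

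Otx2os1, which lies 1.64 kb from Otx2, the gene of a homeodomain factor of primed pluripotency and forebrain, held 9 members, the nearest 33.7 kb from Otx2. Its strongest, at chr14:48707509-48707904, had fold enrichments of 19.6 and 13.3. Dleu2, the host gene of miR-15a and miR-16-1, held 9, although the list of replicate 1 alone gave 21 and that of replicate 2 alone 15, and only 4 were left with the overlap of at least 50%. Its strongest member had 17.2 and 16.3. Gm51805 overlaps Tet1, which encodes an enzyme that oxidises 5-methylcytosine, and 4 of its 9 members lay within 10 kb of that gene. Its strongest, 10.8 kb from Tet1, had 14.96 and 16.5, and the one 5.78 kb from it had 15.8 and 8.94. Gm39183, 3.63 kb from Apela, a gene for a peptide hormone of early development, held 9 members with a strongest of 29.6 and 29.9.

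The other genes with 9 members were Gm30928, Gm32673, Gm36470, Gm5089, Gm31340, Gm31432 and Gm32543. Gm32673 lies 0.542 kb from Cd9, a tetraspanin gene, and its strongest member had fold enrichments of 22.4 and 21.5. Gm36470 overlaps Cdk6, a cell-cycle kinase gene, with a strongest of 23.9 and 19.6. Gm31340 lies 0.218 kb from Slc1a3, a glutamate transporter gene, with a strongest of 10.3 and 11.6. Gm32543 has Cited2, a transcriptional co-regulator gene, as its nearest coding gene, 42.3 kb away, with a strongest of 25.7 and 16.7. Without replicate 2, the list of replicate 1 alone gave 15 in Gm31432 and 14 in Gm32543.

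Ranked by density, the first was A830035A12Rik, with 6 members in 7.64 kb on chromosome 11 (107526506 to 107534143), or 7.86 per 10 kb. Its members had fold enrichments from 4.73 to 24.4 in replicate 1 and from 6.004 to 24.1 in replicate 2, and both lists held 6 intervals. Gm30928 followed with 9 members in 14.7 kb on chromosome 7, or 6.11 per 10 kb, and 9 intervals in each list. Its strongest member, at 126339509 to 126340232, had 14.7 and 10.01. Platr29 held 4 in 8.34 kb, or 4.797 per 10 kb, with the strongest, at chr2:165981343-165981953, at 12.7 and 9.34. The other 7 of the first 10 were 4732490B19Rik, Gm31645, Gm11496, 1700096J18Rik, Gm39458, Gm40113 and Gm34403, at 4.72 to 4.01 per 10 kb. This ranking covered the 258 genes of at least 5 kb with at least 3 members, and 4 of the 10 lie on chromosome 11.

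Known lncRNAs were read from 4 lists, and of these the pluripotency list had the highest share of genes with a member. It was 13 of 24 (54.2%), against 12.4% of all lncRNA genes and 17.1% of the 8951 with usable sequence, which all 24 have. The median was 1 member against 0, and the usable sequence held 80.4 members per Mb against 18.7. Its genes were somewhat longer, with a median of 11.2 kb against 8.39 kb. Without Lncenc1 the density was 63.6 per Mb, a density that the list of abundant transcripts below also reached without its longest gene. With a fold enrichment of at least 10 required in both lists, 7 of the 24 held a member (29.2%). This compares with 3.6% of all lncRNA genes and 4.99% of those with usable sequence. The shares are a description of these lists of names.

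Among the Platr genes, 9 of 16 held a member. Platr10, on chromosome 3, had the strongest, with 3 members of 831 to 1090 bp. The enrichment of the member at 75647642 to 75648731 was 28.2 and 14.9, and that of the other 2 was 19.3 and 19.7 each. The list of replicate 1 alone gave 7 in Platr10 and that of replicate 2 gave 3. Platr6 held 4, from 8.26 to 17.9 in replicate 1 and from 8.84 to 20.7 in replicate 2. Platr9, only 1.69 kb long, held 2, with 13.2 and 8.24 at one and 11.5 and 12.6 at the other. Platr29, described above, held 4. Platr3 and Platr11 held 2 each, and Platr14, Platr20 and Platr22 held 1, where the list of replicate 2 alone gave 2 in Platr20 and in Platr22. Those of Platr14 (4.19 and 3.52) and Platr20 (3.56 and 3.52) lay below the lower quartiles of the members, 5.44 and 4.76. Platr4, Platr5, Platr7, Platr8, Platr26, Platr27 and Platr30 held 0, although Platr26 had 2 intervals in replicate 1 and 1 in replicate 2, and Platr8 had 1 in replicate 1.

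The rest of the pluripotency list was divided. Lncenc1 and Sox2ot are described above. Trp53cor1, also known as lincRNA-p21, held 3 members (6 in the list of replicate 1 alone), the strongest at 10.8 and 8.005 and 12.5 kb from the cell-cycle inhibitor gene Cdkn1a. Lncpint held 2 in 124.9 kb, the stronger at 12.4 and 10.2. Dancr, Mir17hg, Oip5os1 and Tunar held 0, and neither wild-type list held an interval in any of the 4.

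Of 19 lncRNAs known from development, 6 held a member (31.6%, against 12.4% of all lncRNA genes). Over genes with usable sequence it was 6 of 18 (33.3%), against 17.1%. Their usable sequence held 47.5 members per Mb against 18.7, and their median length was 15.7 kb against 8.39 kb. Besides Otx2os1, these were Chaserr with 4, Halr1 with 3, and Bvht, Dlx6os1 and Hotair with 1 each. Halr1, a transcript beside the Hoxa genes that is made in embryonic stem cells, had its strongest member at chr6:52105830-52106606 with fold enrichments of 16.5 and 17.7, and the other 2 were at 4.13 and 4.76 and at 4.06 and 6.04. Chaserr, next to the chromatin remodeller gene Chd2, had weak members, none above 5.51 in replicate 1 or 6.12 in replicate 2, and 0 were left with the overlap of at least 50% or with summits within 100 bp, while the list of replicate 1 alone gave 8. The single member of Hotair (5.51 and 6.12), centred 0.039 kb inside the gene, was likewise lost with summits within 100 bp, and the list of replicate 2 alone gave 3. Bvht, a lncRNA of heart development, had 1 at 11.5 and 7.34, and the list of replicate 1 alone gave 2. Fendrr, Miat, Pantr1, Crnde, Carmn, Hottip and 6 others held 0, with 1 interval of replicate 1 in Crnde, and Rmst held 3 consensus regions, all past the 300 kb limit.

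Of 26 lncRNAs on a list of abundant transcripts and all Snhg genes, 3 held a member (11.5%, against 12.4% of all lncRNA genes). Over genes with usable sequence it was 3 of 25, against 17.1%, and with a fold enrichment of at least 10 in both lists 7.69% of the 26, against 3.6%. By length they held 25.2 members per Mb, and 63.6 without Snhg14, an imprinted antisense transcript of Ube3a that is on the list by its name. Snhg14 has 600 kb of usable sequence and 0 members. Outside coding genes it held 1 interval of replicate 2, and 5 consensus regions inside it were not members. The 3 were Pvt1, Dleu2 and Neat1, and the Snhg genes, hosts of small nucleolar RNAs, held 0 members in 18 genes of mostly short length (median 2.95 kb). Neat1, the scaffold of nuclear paraspeckles, held 2, one of them 1452 bp wide at chr19:5841834-5843285 with fold enrichments of 8.98 and 8.55. With summits within 100 bp, 1 of the 2 was left, and the list of replicate 1 alone gave 4. Malat1 held 0 members, with 2 intervals in replicate 1 and 1 in replicate 2. Of 8 lncRNAs of imprinted domains 1 held a member (12.5%). It was Airn, whose transcription silences Igf2r in cis, with a single region at 8.13 and 6.67 (2 in the list of replicate 1 alone). Meg3, Rian, Mirg, H19 and Nctc1 held 0, and Kcnq1ot1 and Peg13, which overlap coding genes, had no usable sequence.

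Turning to single members, the strongest by the worse of its ranks in both lists lay in Gm33169, at chr3:9654287-9655204, with fold enrichments of 47.5 and 46.7, a mean of 47.1 ± 0.584 (SD, n = 2). The member of 4930500H12Rik followed at 46.7 ± 3.76. The next were in Gm30837 (chr5:63565530-63566668, 37.9 ± 3.25), Gm5089 (chr14:122416089-122416888, 37.1 ± 2.53) and Gm33377 (chr10:95883558-95884045, 35.8 ± 1.29). The first pair differed from each other by less than the spread between replicates, and so did the last 3 when read against the largest of their SDs, while the first pair exceeded the last 3 in each replicate. They rested on 51 to 72 fragments at the summit. The nearest coding genes were Pag1, Robo1, Nwd2, Clybl and Eea1, at 14.3 to 83.0 kb.

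Across the 2646 members the fold enrichments of the replicates had a Spearman's rho of 0.763, against 0.770 across the other 33797 autosomal consensus regions. The median log2 ratio of the deposited values, replicate 2 over replicate 1, was −0.13 for both sets, with no adjustment between lists. Medians were 7.18 and 6.60 for members, 7.11 and 6.54 for all others, 6.89 and 6.12 for regions in coding genes and 7.58 and 6.80 for regions in no gene. Members thus stood between coding and no-gene regions in both lists. The 15284 no-gene regions here were taken at any distance from a coding gene, without the 300 kb limit set for members. A fold enrichment of at least 10 was reached by 29.0% of members in replicate 1 and 24.2% in replicate 2, against 29.2% and 24.4% of the others.

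**Figure D4:**
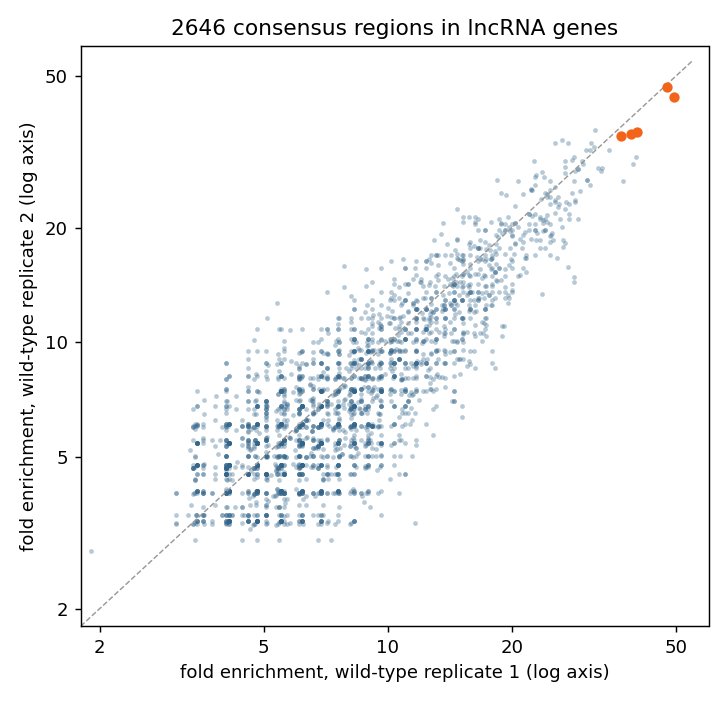
Each point is a member, with its fold enrichment in wild-type replicate 1 (horizontal, log axis) and replicate 2 (vertical, log axis), and the dashed line marks equal values. The 5 strongest members, in orange, lie between 34.9 and 49.4 on both axes, and the scatter about the line is widest at low values.

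Widths showed the same pattern. The median width of a member was 324 bp, with quartiles of 238 and 471 bp and a range from 101 to 2403 bp. It was 318 bp for regions in coding genes, 336 bp for regions in no gene, again without the 300 kb limit, and 327 bp for all other autosomal regions. The strongest interval within a member had a median of 280.5 bp in replicate 1 and 265 bp in replicate 2, between the medians in coding genes (271 and 258 bp) and in no gene (289 and 276 bp). Members of at least 500 bp made up 21.8% and those of at least 800 bp 5.06% (134), against 21.1% and 5.37% of the others. Several summits were called in 18.9% of members in replicate 1 and in 16.6% in replicate 2, against 18.7% and 15.5% of the others.

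**Figure D5:**
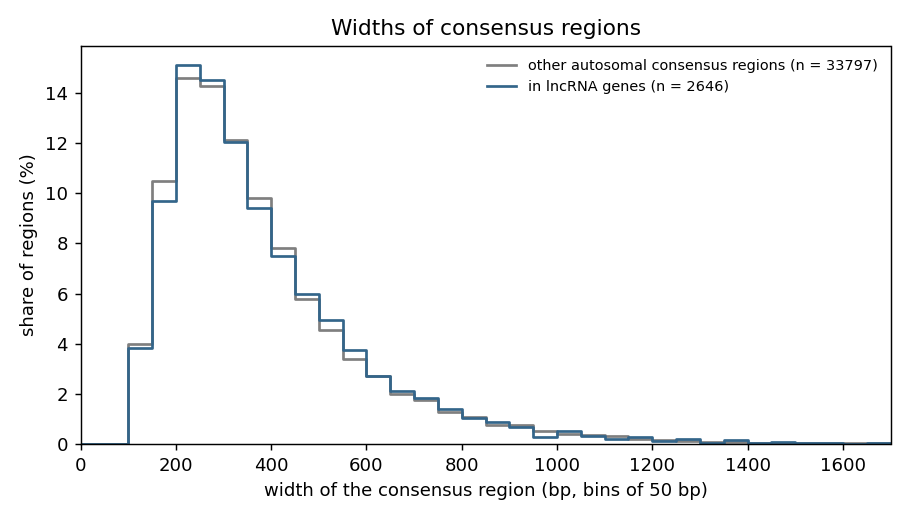
The lines give the share of regions in each 50 bp bin of width, for members (blue) and for all other autosomal consensus regions (grey). Both peak between 200 and 300 bp and run almost together, with medians of 324 and 327 bp.

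Wide members were also strong ones on the whole. Width and fold enrichment had a Spearman's rho of 0.663 in replicate 1 and 0.628 in replicate 2 across members, where both depend on the pileup. The widest member, 2403 bp at chr11:23095107-23097509 in Gm39610, had fold enrichments of 27.9 and 30.2, with 7 and 4 summits called. It was followed by those in A930001A20Rik (1653 bp, 26.9 and 30.0), Gm30687 (1562 bp, 27.9 and 24.6), Gm26510 (1538 bp, 7.58 and 8.16) and Gm46638 (1477 bp, 20.02 and 19.1). The member in Gm26510 was wide but weak, and it joined 2 intervals of replicate 1 with 1 of replicate 2.

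The median member lay 34.4 kb from the nearest coding gene. Of the members, 643 lay within 10 kb of one and 599 more than 100 kb away. Just inside the 300 kb limit were members in Gm34087, 5730522E02Rik and Gm34184, at 295.5, 297.1 and 297.2 kb, with fold enrichments of 5.48 and 6.72, 5.51 and 4.08, and 4.82 and 5.44. Just outside it were regions in 5730522E02Rik, 3100003L05Rik and Gm26861, at 300.3, 302.2 and 302.7 kb, with 12.7 and 9.05, 4.82 and 5.44, and 4.82 and 4.76.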

How the data were processed

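CUT&RUN libraries of 2 mouse embryonic stem cell lines were used through the 4 peak lists of the SALL4 antibody. Groups and replicate numbers come from the sample titles. The submitters' processing notes name Trim Galore 0.6.0, cutadapt 1.18, BWA 0.7.17 and MACS2 2.1.1.20160309, and the build GRCm38 (mm10). Their settings and the control used are not given in the sources used here. Each list covers 1 sample. In the deposited lists, fold enrichment is a ratio, from the values the pileup at the summit plus 1 over a local background plus 1, which matters most at low pileups. The authors' −log10 p-value and their −log10 q-value describe that summit. From the values, the deposited score equals the −log10 q-value times 10, cut to a whole number, and the deposited summit offset is in bp. No deposited q-value exceeds 0.05.

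Overlapping lines of a list were merged, keeping the highest fold enrichment. Fold enrichments were not rescaled between lists, and their means over both lists describe and rank members only. Pileups were recovered from fold enrichment and p-value with a tolerance of 0.0001 in −log10 p. Overlaps needed at least 1 bp. Genes, their coordinates and biotypes come from RefSeq's GRCm38.p6 table. Strands come from the promoter entries, which match 9291 of 12408 autosomal lncRNA genes, and exons were not used here. No genome sequence was used, so sequences at summits outside promoter windows were not analysed here. Sequence lengths run from the first to the last wild-type interval of each chromosome.

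Named genes are those with the most members (21, since 12 tie at 9), the 10 densest of at least 5 kb with at least 3 members, the 5 strongest and the 5 widest members, those beside the 300 kb limit, and 4 lists of known lncRNAs. Of these lists, 4 names had no lncRNA entry. MicroRNAs, list genes with 0 members, and the printed promoters other than those of the Platr genes were chosen after their values were seen. The strongest member of a gene is that with the highest mean fold enrichment over both lists. The members and lists were chosen with earlier results of these data known. Wilson intervals are at 95%. Scripts were tested on simulated data and used Python 3.11.15, numpy 2.4.6, scipy 1.17.1, pandas 2.3.3 and matplotlib 3.10.9.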

Additional observations from a re-analysis of the deposited data

How the results depend on the processing

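The knockout lists hold 0 autosomal intervals, so no alternative could turn the direction of the difference from wild type. Its log2 size, set by the wild-type count and the added 1, ran from 9.46 at a fold enrichment of at least 10 to 11.80 with any overlap in place of the midpoint, and from 11.68 to 11.88 with 1 library left out. The 300 kb limit was kept in all of these. Pairing libraries by their number (replicate block) left the difference at 11.78, and flipping the signs of the 2 pairs gave an exact p = 0.5, below which 2 pairs cannot go. Both knockout values are 0, so a correlation within pairs cannot be computed.

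A minimum on q or on fold enrichment leaves fewer and stronger regions by construction. At a −log10 q of at least 10 there were 816 members, 5.76 per Mb, with a median width of 509.5 bp and a median fold enrichment (mean of both lists' medians) of 13.0. At a fold enrichment of at least 10 there were 557, 3.93 per Mb, with 548 bp and 15.1. The main values were 2646, 18.7 per Mb, 324 bp and 6.89. With a reciprocal overlap of at least 50% the density was 16.0 per Mb and the fold enrichment 7.31, and with summits within 100 bp they were 15.8 per Mb and 7.13, with a width of 312.5 bp. With 1 wild-type replicate left out, the other list alone gave 23.1 to 26.5 per Mb, widths of 224.5 to 233 bp and fold enrichments of 5.89 to 6.08, since no consensus was needed and no union formed. The share found in the other list, 76.6% on average, was 64.9% when overlaps had to be reciprocal and 64.1% when summits had to lie within 100 bp, which accept fewer pairs. It needs both wild-type lists, so it has no value when either is left out.

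LncRNA sequence stayed denser than sequence in no gene, at 1.12 to 1.22 times, in the 4 stricter consensus sets. For the 47 named genes, the number of members moved by over 1.5 times in 41 at the strict q-value and in 44 at the strict fold enrichment, in 5 with the reciprocal overlap, 4 with summits within 100 bp, and 2 without the 300 kb limit. It moved in 4 without wild-type replicate 1 and in 9 without replicate 2, and in 0 under the other 5 alternatives. These include leaving out either knockout list, which could not change a count, since both hold 0 autosomal intervals. With a median of 10 or 11 fragments at a summit, weak members cannot be ranked.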
